A study of Mus musculus with 5 samples.

Results

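In all, 7 genes of lymphoid transcription factors were examined in IL-2-activated natural killer cells (NKC): Tcf7 and Lef1, the lymphoid regulators Bcl11b and Bach2, and the Ikaros family members Ikzf1, Ikzf2 and Ikzf3. They were chosen by name, with earlier results of these data known, as 7 of 22350 protein-coding genes on the autosomes and chromosome X. The shares of all genes given below are therefore not set against a blind choice. Every ChIP-seq peak that overlapped a gene or the 20 kb to either side of it by at least 1 bp was assigned to it. This gave 20 of 11676 Runx3-bound regions and 108 of 34204 H3K4me1-marked regions. NKC came from spleens of ICR mice, were enriched by negative selection with an NK isolation kit and were grown for 7 days in 1000 units/ml human recombinant IL-2. The labels describe the cultured cells as NKp46+, the study's methods give a purity just short of complete, and the methods also name a sort for DX5+ cells that the labels leave out. Chromatin, sheared to about 300 bp, was precipitated with a home-made polyclonal antibody to Runx3 in 2 libraries, with a monoclonal antibody to H3K4me1 in 1 library, and with non-immune rabbit serum (NIS), the control, in 2 libraries. The animals' age and sex, and how many spleens entered a library, are not given in the sources used here, and cells that lack Runx3 were not analysed here. Each mark has 1 list of peak positions made against NIS, with no height or score per peak and no values per library, so no count below has a replicate error, none could be tested, and the depth behind a single peak is unknown. A peak shows where the antibody enriched DNA and is not a measure of the gene's expression.

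Runx3 is a transcription factor that binds a short DNA word, the RUNX motif, and monomethylation of histone H3 at lysine 4 (H3K4me1) marks enhancers and the flanks of active promoters. Tcf7 encodes TCF-1 and Lef1 encodes LEF-1, related HMG-box factors that can pair with β-catenin or with Groucho/TLE corepressors, and both take part in T cell development and in that of NKC. Bcl11b is a zinc finger protein needed for commitment to the T cell lineage, and Bach2 is a repressor that pairs with small Maf proteins, competes at AP-1-like sites and restrains effector differentiation. Ikaros (Ikzf1), Helios (Ikzf2) and Aiolos (Ikzf3) are zinc finger proteins that can join each other and the NuRD chromatin remodelling complex.

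Runx3-bound regions were found at 5 of the 7 genes, where 41.1% of all protein-coding genes had at least 1, and H3K4me1-marked regions at 6 of 7, where 51.1% of all genes had at least 1. Bach2 held 7 Runx3 peaks, Lef1 held 6, Ikzf1 held 3, and Tcf7 and Ikzf3 held 2 each, while Bcl11b and Ikzf2 held 0. The order differed for H3K4me1, with 36 peaks at Ikzf1, 31 at Bach2, 14 at Ikzf3, 13 at Lef1, 12 at Tcf7, 2 at Bcl11b and 0 at Ikzf2. Thus 5 members had both marks, Bcl11b had H3K4me1 without Runx3, as did 17.3% of all genes, and Ikzf2 had neither, as did 41.6%. The same 5 members had at least 1 Runx3 peak that overlapped H3K4me1, which 20.5% of all genes had. At least 2 Runx3 peaks, which these 5 members all had, were found at 18.1% of all genes, and at least 12 H3K4me1 peaks at 3.15%. The members are longer than most genes, with windows of 70.8 to 387 kb against a median of 55.4 kb, and a long window can hold more peaks, so densities are given further on.

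**Figure D1:**
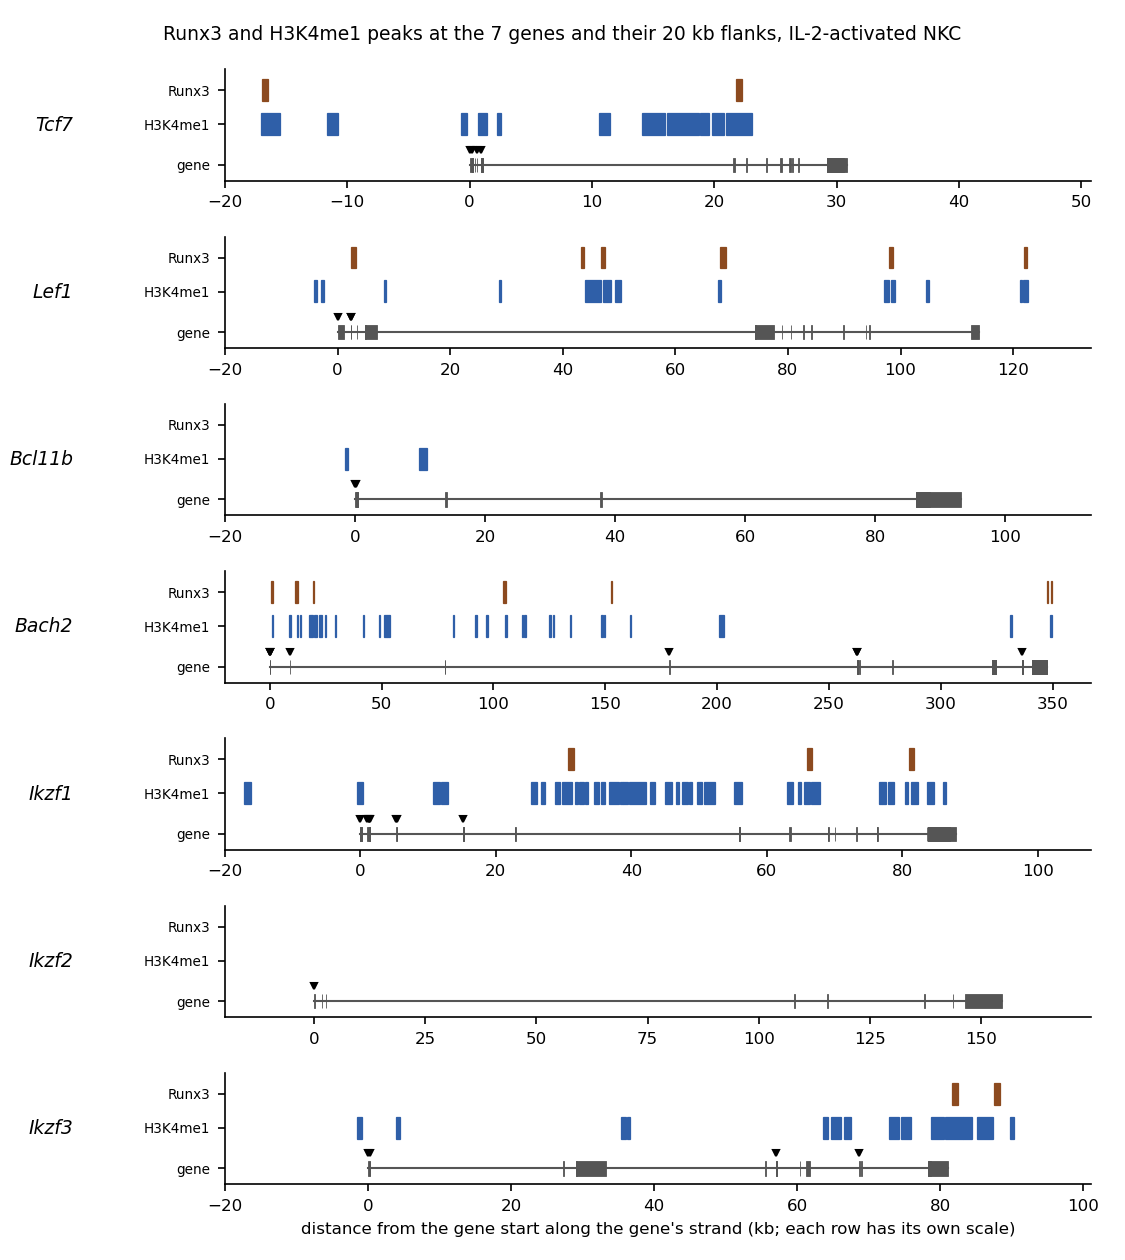
Positions of Runx3 peaks (brown) and H3K4me1 peaks (blue) at each of the 7 genes and 20 kb to either side; the x axis is the distance in kb from the gene start along the gene's strand, grey blocks are exons of all annotated transcripts, triangles are their start sites, and each row has its own scale. H3K4me1 peaks crowd introns 3 and 4 of Tcf7, the middle of Ikzf1 and the 3′ end of Ikzf3. Runx3 peaks are spread along Lef1 and Bach2, and the row of Ikzf2 is empty.

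Of the 20 Runx3 peaks, 14 were centred in introns, 5 downstream of the gene and 1 upstream, and 0 overlapped an exon of the gene. Introns and exons are numbered along the transcript with the longest coding sequence. Only 2 of the 20, at Lef1 and Bach2, were centred within 1 kb of a transcription start site (TSS), where 23.6% of all Runx3 peaks were. The peaks were 483 to 1528 bp wide with a median of 734 bp, against 704 bp for the whole list. Of the 108 H3K4me1 peaks, 86 were centred in introns, 10 upstream, 7 downstream, 3 in coding exons and 2 in UTR exons, and 5 lay within 1 kb of a TSS, as did 11.8% of that list.

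Tcf7 lies on the minus strand at chr11:52065873-52096681 (mm9) and held 2 Runx3 peaks, as many as Ikzf3 and fewer than Lef1, Bach2 or Ikzf1. Both, at 513 and 528 bp, were narrower than the list median of 704 bp, and when the list was limited to peaks at least that wide Tcf7 held 0 Runx3 peaks. The upstream Runx3 peak, at chr11:52113148-52113660, was centred 16723 bp before the gene start, and 508 of its 513 bp lay in a pair of adjoining H3K4me1 peaks. The other, at chr11:52074393-52074920 in intron 4, lay with all of its 528 bp in an H3K4me1 peak of 2114 bp. H3K4me1 peaks covered 13321 bp, or 18.8% of the gene and its flanks, a larger share than at 98.1% of all genes. They were densest in introns 3 and 4. There, 5 peaks less than 1 kb apart formed a stretch of 8956 bp, from 14102 to 23057 bp after the gene start. The intron 4 Runx3 peak lay in this stretch, and no H3K4me1 peak lay between the stretch and the gene end. Near the start of Tcf7, H3K4me1 peaks were centred 491 bp upstream of the gene start and in coding exon 3, without a Runx3 peak. No protein-coding TSS was nearer than that of Tcf7 to any of these 2 Runx3 and 12 H3K4me1 peaks. The upstream peak had 2 RUNX motifs (any of the words TGTGGT, here variant 1, TGTGGC, variant 2, TGCGGT, variant 3, and TGCGGC, variant 4, on either strand) and 1 AP-1 motif (TGACTCA or TGAGTCA on either strand), and the intron 4 peak had 0 RUNX motifs and 1 AP-1 motif. Short windows on the plus strand of mm9, around a RUNX motif of the upstream peak and the AP-1 motif of the intron 4 peak, show this with RUNX and AP-1 motifs in capitals. A RUNX motif on the minus strand reads as its reverse complement, as ACCGCA for TGCGGT.
Tcf7 peak 1, chr11:52113326-52113426: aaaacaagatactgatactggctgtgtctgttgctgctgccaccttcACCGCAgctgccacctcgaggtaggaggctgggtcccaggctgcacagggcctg
Tcf7 peak 2, chr11:52074489-52074589: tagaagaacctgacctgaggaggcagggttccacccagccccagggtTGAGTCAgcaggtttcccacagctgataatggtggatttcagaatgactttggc

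Lef1 lies on the plus strand at chr3:130813389-130927274 and held 6 Runx3 peaks, more than 99.3% of all genes. They lay along the whole gene, 1 in intron 1, 3 in intron 3, 1 in intron 11 and 1 centred 8300 bp beyond the gene end. The peak in intron 1, at chr3:130815828-130816591, was centred 485 bp from an annotated TSS of Lef1, and with 4912 bp to the nearest H3K4me1 peak it was the farthest from that mark of all 20. The peaks of intron 3 were centred 43522, 47075 and 68445 bp after the gene start. The first of them lay 191 bp outside an H3K4me1 peak of 2795 bp, the widest at any member, the middle one bridged this peak and the next, sharing 426 of its 734 bp with them, and the last, 960 bp wide at chr3:130881355-130882314, shared 151 bp with an H3K4me1 peak. The peak in intron 11, at chr3:130911327-130912089, again touched an H3K4me1 peak on either side. Both this peak and the one downstream had Hadh, a fatty acid oxidation enzyme, as the gene with the nearest TSS, at 63234 and 39368 bp. H3K4me1 covered 11431 bp or 7.43% of the Lef1 window in 13 peaks, of which 6 were in intron 3 and 3 in intron 11. With peaks given to the nearest TSS, Lef1 held 8 of the 13. A Runx3 peak overlapped 6 of the 13 (46.2%), against 19.9% of the whole H3K4me1 list and 17.6% over all 7 genes. These 6 were met by only 4 Runx3 peaks, since some of the 4 touched more than 1 H3K4me1 peak. The widest peak held 6 RUNX motifs, and its window shows a pair of TGTGGT motifs with 15 bases between them. The peak near the TSS held 1 motif, 48 bp from its centre. These windows come from the widest Runx3 peak of the gene and from the one nearest a TSS of it.
Lef1 peak 4, chr3:130881694-130881794: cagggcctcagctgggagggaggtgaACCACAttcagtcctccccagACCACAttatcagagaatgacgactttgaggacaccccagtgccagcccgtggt
Lef1 peak 1, chr3:130816207-130816307: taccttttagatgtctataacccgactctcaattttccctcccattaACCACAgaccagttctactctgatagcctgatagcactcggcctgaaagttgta

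Bcl11b lies on the minus strand at chr12:109148613-109241812 and held 0 Runx3 peaks. Its window held 2.20 RUNX motifs per kb, where the middle 50% of all genes had 1.43 to 1.96. The nearest Runx3 peak was 37.8 kb from the gene, a distance reached or exceeded at 49.3% of all genes. H3K4me1 marked 2 places, a peak of 369 bp centred 1292 bp upstream of the gene start and a peak of 1183 bp in intron 1, together 1552 bp or 1.17% of the window. The remaining 82.2 kb of the gene to its 3′ end, 88.2% of its length, had no H3K4me1 peak. Beyond the 20 kb flank the picture differed, since 2 Runx3 peaks and 10 H3K4me1 peaks lay upstream within 100 kb of the gene, the H3K4me1 peaks between 37.2 and 98.9 kb from its start. The Runx3 peak at chr12:109279647-109280634, 38.3 kb upstream, held 6 RUNX motifs and overlapped an H3K4me1 peak, and the peak at chr12:109285311-109285940, 43.8 kb upstream, also held 6 motifs and lay 0.717 kb from H3K4me1. Bcl11b was the protein-coding gene with the nearest TSS to both.

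Bach2, the longest of the 7 genes, lies on the plus strand at chr4:32325779-32673083 and held 7 Runx3 peaks, more than 99.6% of all genes, in a window of 387 kb. Intron 1 held 3 of them, intron 2 held 2, and 2 were centred 514 and 2240 bp beyond the gene end. The start-proximal peak, 1156 bp at chr4:32326227-32327382, was centred 752 bp from a TSS of Bach2, shared 728 bp with an H3K4me1 peak, and had 8 RUNX motifs and a GC content of 64.6%. The widest Runx3 peak at any member, 1528 bp at chr4:32336991-32338518, was also in intron 1, held 6 RUNX and 2 AP-1 motifs and shared 395 bp with H3K4me1. The third peak of intron 1, centred 19505 bp after the gene start, had its centre in a gap between H3K4me1 peaks of a 5385 bp stretch and shared 38 of its 517 bp with the mark. In intron 2, the peak at chr4:32429964-32431193 shared 50 of its 1230 bp with H3K4me1, whereas the peak at chr4:32478140-32478622 lay 2320 bp from the mark, had 0 RUNX motifs and had 2 AP-1 motifs. H3K4me1 covered 23361 bp or 6.03% of the window in 31 peaks, 16 of them in intron 1 and 12 in intron 2. No H3K4me1 peak lay between 203 and 331 kb after the gene start, a stretch of 128 kb or 36.9% of the gene. All 7 Runx3 and all 31 H3K4me1 peaks had their nearest TSS at Bach2. The windows show the widest peak, the start-proximal peak, where 4 RUNX motifs stand with 2, 2 and 20 bases between neighbours, and the peak without a RUNX motif.
Bach2 peak 2, chr4:32337657-32337757: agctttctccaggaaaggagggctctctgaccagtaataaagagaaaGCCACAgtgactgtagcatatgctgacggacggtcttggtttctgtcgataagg
Bach2 peak 1, chr4:32326548-32326648: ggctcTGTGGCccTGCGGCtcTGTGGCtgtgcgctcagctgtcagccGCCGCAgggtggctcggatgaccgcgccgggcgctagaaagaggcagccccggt
Bach2 peak 5, chr4:32478383-32478483: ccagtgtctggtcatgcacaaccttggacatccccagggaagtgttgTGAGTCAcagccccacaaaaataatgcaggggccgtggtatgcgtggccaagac

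Ikzf1, the gene of Ikaros, lies on the plus strand at chr11:11585006-11672929 and was the member with the most H3K4me1, in 36 peaks that covered 31153 bp or 24.4% of the window. Its count of H3K4me1 peaks was higher than that of 99.8% of all genes. Intron 3 held 21 of the 36 peaks, and 12 of them less than 1 kb apart formed the longest stretch at any member, 14707 bp from 28756 to 43462 bp after the gene start. A further stretch of 7401 bp, with 6 peaks, followed and had no Runx3 peak. An H3K4me1 peak of 846 bp spanned the gene start, also without Runx3. The 3 Runx3 peaks were in introns 3, 4 and 7, centred 31156, 66277 and 81432 bp after the gene start, and the centre of each lay inside an H3K4me1 peak. They shared 459 of 867 bp, 638 of 784 bp and 442 of 727 bp with the mark. The TSS of Fignl1, an AAA ATPase of DNA repair, was nearer than that of Ikzf1 to the latter 2, at 50181 and 35026 bp. When peaks were given to the nearest TSS, Ikzf1 held 1 Runx3 peak and 27 of the 36 H3K4me1 peaks. Of the 36 H3K4me1 peaks, 4 (11.1%) overlapped Runx3. The window is from the widest Runx3 peak, at chr11:11615729-11616595 in intron 3, and in it an AP-1 motif stood 7 bases before a RUNX motif.
Ikzf1 peak 1, chr11:11616154-11616254: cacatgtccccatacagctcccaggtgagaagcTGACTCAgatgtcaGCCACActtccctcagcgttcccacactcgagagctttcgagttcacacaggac

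Ikzf3, the gene of Aiolos, lies on the minus strand at chr11:98326216-98407345, and both of its Runx3 peaks lay beyond its 3′ end. The peak at chr11:98324905-98325637 was centred 945 bp and the peak at chr11:98318917-98319882 was centred 6817 bp past the gene end. The nearest TSS was in each case that of Grb7, a signalling adaptor, at 10168 and 4296 bp, so the assignment to Ikzf3 rests on the flank: without flanks, and with peaks given to the nearest TSS, Ikzf3 held 0 Runx3 peaks. The first peak lay with all of its 733 bp in an H3K4me1 peak of 2530 bp, and the second stood between H3K4me1 peaks, 89 bp from the nearer. H3K4me1 at Ikzf3 was concentrated in the same 3′ region, with a stretch of 8598 bp from 78776 to 87373 bp after the gene start, across the gene end. In all, 14 peaks covered 16839 bp or 13.9% of the window, more than at 96.0% of all genes, and 1 of the 14 (7.14%) overlapped Runx3. The 4 H3K4me1 peaks centred past the gene end had their nearest TSS at Grb7, most of that stretch among them. With peaks given to the nearest TSS, Ikzf3 held 10 H3K4me1 peaks. The gene start had a peak of 700 bp upstream, and the longest unmarked stretch of the gene, 30.9 kb, ran from 4.47 to 35.4 kb after it. The windows show the Runx3 peak farther from the gene end, with a TGCGGC motif, and the nearer peak, where TGCGGT and TGTGGT stood 1 base apart on the same strand.
Ikzf3 peak 2, chr11:98319550-98319650: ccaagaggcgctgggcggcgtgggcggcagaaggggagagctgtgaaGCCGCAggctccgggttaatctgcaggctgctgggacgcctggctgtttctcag
Ikzf3 peak 1, chr11:98325257-98325357: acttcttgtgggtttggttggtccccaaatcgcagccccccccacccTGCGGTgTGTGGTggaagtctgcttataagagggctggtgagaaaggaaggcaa

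Ikzf2, the gene of Helios, lies on the minus strand at chr1:69577788-69732534 and had neither mark in its window of 195 kb. The nearest Runx3 peak was 69.5 kb from the gene, a distance reached or exceeded at 38.6% of all genes. The nearest H3K4me1 peak was 1414 kb away, which 5.11% of all genes reached or exceeded, against a median distance of 17.9 kb. Within 100 kb of Ikzf2 there were 2 Runx3 peaks and 0 H3K4me1 peaks. The peak at chr1:69815195-69815955, 83.0 kb upstream, held 4 RUNX motifs and was nearest to the TSS of Spag16, and the peak at chr1:69507596-69508316, 69.8 kb downstream, held 0. The density of RUNX motifs in the Ikzf2 window, 1.15 per kb, was the lowest of the 7. The other Ikaros genes, Ikzf1 and Ikzf3, had 24.4% and 13.9% of their windows inside H3K4me1 peaks. How well short reads align uniquely across Ikzf2 was not tested.

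Counts per 100 kb of window took the window length into account and changed the order. They did not remove the effect of gene length, since each window includes the 20 kb flanks. A short gene can reach a high value with few peaks, as Rrs1 did with 1 Runx3 peak and 2.38 per 100 kb. Lef1 had 3.90 Runx3 peaks per 100 kb, Tcf7 2.82, Ikzf1 2.35, Bach2 1.81 and Ikzf3 1.65, where the 75th percentile of all genes was 1.82 and the 90th was 3.37. Bach2, first by number of Runx3 peaks, was therefore the fourth by density, higher than 74.8% of all genes, and Lef1 was higher than 92.0%. For H3K4me1, Ikzf1 had 28.1 peaks per 100 kb, Tcf7 16.9, Ikzf3 11.6, Lef1 8.45, Bach2 8.0 and Bcl11b 1.5, where the 90th percentile was 9.65 and the median 0.578. Ikzf1 and Tcf7 were higher than 99.6% and 97.1% of all genes, and Bcl11b than 55.6%. Neighbouring values in these orders, such as those of Lef1 and Bach2 for H3K4me1, have no error and cannot be called different. The density of RUNX motifs in the windows, 1.75 to 2.02 per kb at the 5 Runx3-bound genes, did not follow the order of Runx3 peaks, since Bcl11b had the highest, 2.20, and 0 peaks.

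**Figure D2:**
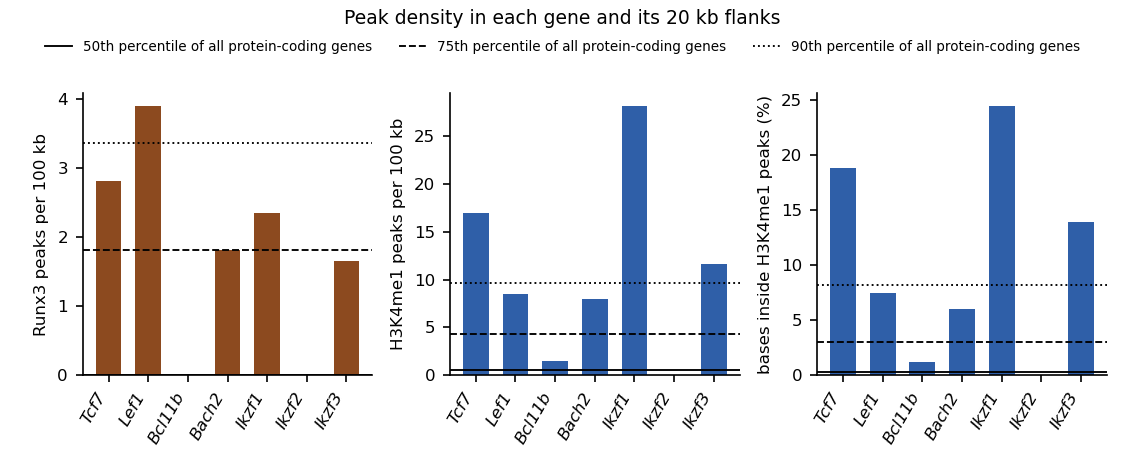
Runx3 peaks per 100 kb (left), H3K4me1 peaks per 100 kb (middle) and percent of bases inside H3K4me1 peaks (right) in each gene with its 20 kb flanks; bars are single values from 1 list per mark, without error, and lines are the 50th, 75th and 90th percentiles of all 22350 protein-coding genes. Lef1 stands above the 90th percentile for Runx3, and Tcf7, Ikzf1 and Ikzf3 stand above it for H3K4me1 by both measures.

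Runx3 and H3K4me1 coincided at 15 of the 20 Runx3 peaks, or 75% (95% Wilson interval 53.1 to 88.8, which covers counting error only), where 48.4% of all Runx3 peaks overlapped an H3K4me1 peak. Overlap was found at 2 of 2 peaks of Tcf7, 4 of 6 of Lef1, 5 of 7 of Bach2, 3 of 3 of Ikzf1 and 1 of 2 of Ikzf3. Peaks of the same gene are not replicates, and no test was made of the difference. All Runx3 peaks include many at start sites, so the share was also taken over peaks more than 1 kb from a TSS, where it was 14 of 18 or 77.8% (54.8 to 91.0) for the members and 57.5% for the whole list. The share rested on what counted as overlap: the centre of the Runx3 peak lay inside an H3K4me1 peak in 10 of 20, against 28.2% of the whole list, and an H3K4me1 peak was within 1 kb in 18 of 20, against 61.3%. With flanks of 100 kb the share was 20 of 36, or 55.6%. Where the centre was outside the mark, 3 peaks, of Lef1, Bach2 and Ikzf3, lay between H3K4me1 peaks no more than 2 kb off on either side, 5 had the mark near on 1 side and 2 had none within 2 kb. The corresponding shares of the whole list were 13.9%, 21.7% and 36.2%. Seen from the other mark, 19 of the 108 H3K4me1 peaks (17.6%, 11.6 to 25.8) overlapped Runx3, against 19.9% of all H3K4me1 peaks, and most of the marked sequence at these genes, including the long stretch 3′ of the first at Ikzf1, had no Runx3 peak. A RUNX motif was present in 93 of the 108, where 79.7% of all H3K4me1 peaks contained it. The 108 peaks had a median width of 714 bp, against 689 bp for the whole list, and the difference in motif share was not tested.

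**Figure D3:**
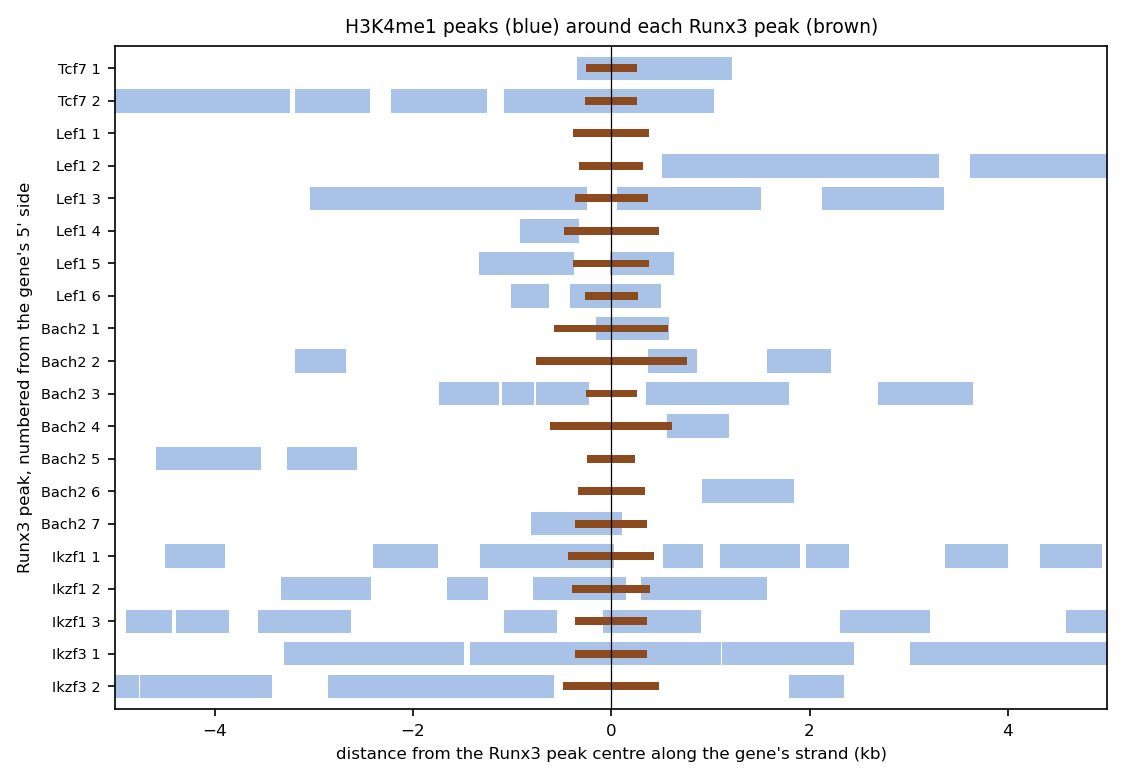
H3K4me1 peaks (blue) within 5 kb of the centre of each of the 20 Runx3 peaks (brown bars), in kb along the gene's strand, with peaks numbered from the gene's 5′ side. The centre lies inside an H3K4me1 peak in 10 rows, among them all of Tcf7 and Ikzf1, and peak 1 of Lef1 and peak 5 of Bach2 have no H3K4me1 within 2 kb.

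A RUNX motif was present in 18 of the 20 Runx3 peaks (90%, 69.9 to 97.2), where 96.0% of all Runx3 peaks and 69.8% of equally wide windows placed 10 kb from the peaks, on both sides, contained it. In the central 200 bp the shares were 70%, 76.9% and 29.3%. The 20 peaks held 70 motifs, 27 of TGTGGT, 30 of TGTGGC, 6 of TGCGGT and 7 of TGCGGC, with a median of 3 per peak as in the whole list. Of the 7 TGCGGC motifs, 4 were in the start-proximal peak of Bach2. The 2 peaks without a RUNX motif, in intron 4 of Tcf7 and intron 2 of Bach2, both contained an AP-1 motif, and among all 467 Runx3 peaks without a RUNX motif 27.8% did. This was noticed after the values were seen. AP-1 motifs, the kind of site at which Bach2 competes with Jun and Fos proteins, were in 5 of the 20 peaks (25%, 11.2 to 46.9), against 26.2% of all Runx3 peaks and 12.6% of flanking windows. ETS motifs (the word AGGAAA, the word AGGAAG, the word CGGAAA or the word CGGAAG) were in 18 of 20 (90%), against 91.4% of all peaks and 84.6% of flanking windows. Motifs read by the factors these genes encode were as frequent here as in the whole list, within counting error. TCF/LEF motifs (the word CTTTGAA, the word CTTTGAT, the word CTTTGTA or the word CTTTGTT) were in 9 of 20 (45.0%, 25.8 to 65.8) against 39.8% of all peaks and 46.8% of flanking windows, and the Ikaros motif (TGGGAA) in 10 of 20 (50%, 29.9 to 70.1) against 48.4% and 51.6%. Each motif was read on either strand. A RUNX motif between 250 bp before and 50 bp after the gene start was found at Tcf7, Bach2 and Ikzf1, 3 of 7, where 45.3% of all genes had it. A match is a description of the letters and not a site of binding.

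**Figure D4:**
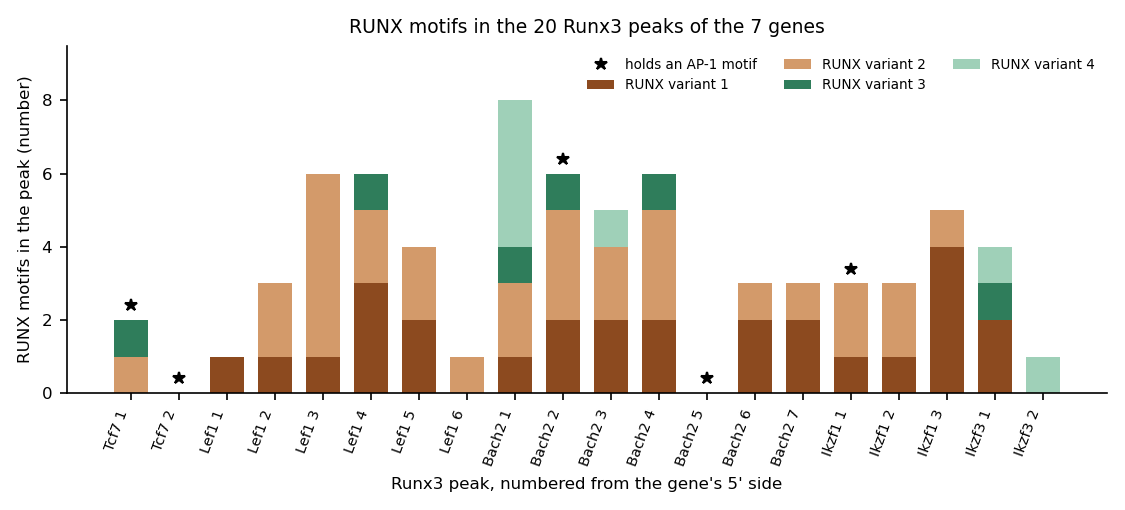
Number of RUNX motifs (y axis) in each of the 20 Runx3 peaks (x axis, numbered from the gene's 5′ side); variant 1 is TGTGGT, variant 2 is TGTGGC, variant 3 is TGCGGT and variant 4 is TGCGGC, and a star marks a peak with an AP-1 motif. Peak 1 of Bach2 holds the most, 8, and peak 2 of Tcf7 and peak 5 of Bach2 hold 0 RUNX motifs and carry a star.

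Related genes were read in the same way, each with its 20 kb flanks. Of 6 paralogues of the members, 5 had a Runx3 peak and 5 an H3K4me1 peak. Runx3 peaks that overlapped H3K4me1 were found at 2 of the 6, where 20.5% of all genes had them. The 2 were the other TCF genes, Tcf7l1 with 2 Runx3 peaks and Tcf7l2 with 1. Bach1 had 0 Runx3 and 7 H3K4me1 peaks, and Bcl11a the opposite, 1 and 0. Ikzf4 and Ikzf5 had 1 Runx3 and 2 H3K4me1 peaks each. Of 12 cofactors, from β-catenin and the TLE corepressors to small Maf proteins and NuRD subunits, 10 had each mark and 7 had them overlapping. Maff, a small Maf partner of Bach2, led with 6 Runx3 and 11 H3K4me1 peaks, while the NuRD deacetylase genes Hdac1 and Hdac2 had 0 Runx3 peaks and Tle1 and Hdac2 had 0 H3K4me1 peaks. Of 12 other regulators of the T lineage, 10 had Runx3 and 11 H3K4me1, with 14 and 39 peaks at Runx1, the most of the list, and 5 had a Runx3 peak that overlapped H3K4me1. Id3, an inhibitor of E proteins, and Zbtb7b, which directs the CD4 lineage, had 0 Runx3 peaks, and Myb had 0 H3K4me1 peaks. All 9 regulators of the NK lineage had both marks, among them Id2 and Nfil3 with 4 Runx3 peaks each and Tbx21, the gene of T-bet, with 2 Runx3 and 16 H3K4me1 peaks. The marks overlapped at 5 of the 9, and at Id2 at 0 of its 4 Runx3 peaks. Of all protein-coding genes, 41.1% had a Runx3 peak, 51.1% an H3K4me1 peak and 20.5% a Runx3 peak that overlapped H3K4me1.

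Markers were read for the identity of the cells, with the limit that a peak is not expression. All 6 NKC markers (Ncr1, Klrb1c, Klrk1, Klrd1, Gzmb and Prf1) had both marks, with 2 to 5 Runx3 peaks and 2 to 10 H3K4me1 peaks. Of 6 T cell markers, 5 had both marks and Cd8a had neither, and Cd3e, Cd3d and Cd3g share the same peaks in part because the genes are neighbours. Of 4 B cell and 4 myeloid cell markers, 2 of each had Runx3 and 3 of each had H3K4me1. A Runx3 peak that overlapped H3K4me1 was found at 3 of the 6 NKC markers and 5 of the 6 T cell markers. The same held for 1 of the 4 B cell and 2 of the 4 myeloid cell markers. The shares of all protein-coding genes were 41.1% with a Runx3 peak, 51.1% with an H3K4me1 peak and 20.5% with both overlapping. The negative selection and the DX5+ sort are steps meant to remove cells other than NKC. Whether any such cells contributed to the peaks of the 7 genes was not tested.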

How the data were processed

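ChIP-seq of IL-2-activated NKC was used. Per the labels and the study's methods, reads were aligned to mm9 with ELAND, uniquely aligned reads were kept, and peaks were called with MACS against NIS after the reads of a mark had been joined and the bigger of the compared sets had been scaled down. The MACS threshold is not given in the sources used here. The deposited values are peak starts and ends in bp, counted from 0 and given here from 1. The 2 points on which labels and methods differ, the antibody volume and whether H3K4me1 was repeated, were not resolved, and 1 H3K4me1 library is taken as the labels list it. Joining libraries before calling hides their spread, and reads aligned to several places leave no peak.

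The gene annotation was GENCODE M1, and bases were read from the mm9 genome. Peaks on 19 autosomes and chromosome X were counted where they overlapped a gene or its 20 kb flanks by 1 bp, beside the share of all protein-coding genes. The 7 genes, the related gene lists, the markers and the motifs were chosen with earlier results of these data known. All peaks of the 7 genes are described. Of the related lists, the gene with the most Runx3 peaks and genes behind small counts are named, and Id2 ties with Nfil3. Tbx21, Ikzf4, Ikzf5, the TSS of Spag16 and other neighbours, and the AP-1 windows of peaks without a RUNX motif were added after values were seen. The other printed windows come from Runx3 peaks that hold a RUNX motif, namely the widest and the one nearest a TSS of the gene. They surround the RUNX motif nearest the peak centre. Flanking windows for motifs lay 10 kb to either side of all Runx3 peaks. Intervals are 95% Wilson intervals. Counting and motif steps were tested on simulated data. Python 3.11.15, numpy 2.4.6, scipy 1.17.1, pysam 0.24.0, samtools 1.23.1 and matplotlib 3.10.9 were used.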

Additional observations from a re-analysis of the deposited data

How the results depend on the processing

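The number of Runx3 peaks at the 7 genes was 20, and it was 36 with flanks of 100 kb and 13 when the list was limited to peaks at least as wide as its median. The number of H3K4me1 peaks was 108, and it was 55 when peaks less than 1 kb apart were joined and 59 for the wider peaks. The share of Runx3 peaks on H3K4me1 was 75%, and it was 50% when the centre had to lie inside the mark and 90% when the mark within 1 kb sufficed. The median over the 7 genes of the percent of genes with fewer Runx3 peaks was 81.9, and it was 76.8 without flanks, 84.8 with flanks of 100 kb and 69.1 among genes with a peak of either mark. For H3K4me1 the median was 97.4, and it was 89.0 with flanks of 100 kb and 95.6 among genes with a peak. In the central 200 bp, a window that is narrower by construction, ETS motifs were in 55.0%, TCF/LEF motifs in 10% and Ikaros motifs in 20% of the 20 peaks, against 58.8%, 11.5% and 15.2% of all Runx3 peaks. The other 31 values for the 7 genes together stayed within 1.5 times or within their interval. The median ranks given above also changed by less than 1.5 times, but were counted as moved. For single genes, 74 peak counts stayed and 24 moved, and 12 percent ranks stayed and 30 moved. Some ranks counted as moved shifted little, as that of Bach2 for Runx3 without flanks, from 99.6 to 99.3. Others shifted far, as that of Ikzf3 in the same setting, from 81.9 to 0. Among the wider peaks Tcf7 held 0 Runx3 peaks in place of 2 and Bach2 held 4 in place of 7, so that 4 genes had a Runx3 peak. Without flanks Tcf7 held 1 and Ikzf3 held 0, and with flanks of 100 kb Tcf7 held 5 and Ikzf1 held 7. The cause of these shifts beyond the changed windows was not tested.

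No paired analysis was possible because the values come from 1 peak list per mark and from no test. Leaving out a library was not possible either, since the Runx3 libraries were joined before peaks were called, and a stricter threshold by score was replaced by peak width, since the lists hold no scores.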
